A study of Mus musculus with 75 samples.

Results

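The 9 genes of loop and distal salt transport described here, Slc12a1, Slc12a3, Umod, Kcnj1, Scnn1a, Scnn1b, Scnn1g, Atp1b1, and Wnk1, were followed through 75 mouse kidney libraries. They were chosen by symbol among the 32245 genes of the deposited count table, all 9 were found there, and all 9 passed the filter on low counts in each of the 3 arms of the study. After 3 days of ureter obstruction the message of the loop cotransporter Slc12a1 was at 22.3% to 54.0% of its level in contralateral kidneys, and that of the distal cotransporter Slc12a3 at 27.5% to 60.9%. Messages of the epithelial sodium channel moved less evenly, with Scnn1a called lower in 5 of 6 comparisons, Scnn1b in 1, and Scnn1g in none. In obstructed kidneys of the libraries labelled as Pdgfb knockouts, 6 of the 9 genes were higher than in their controls, where 12.0% of all genes were. Without the scaling factors used here 4 of the 9 were, where 6.11% of all genes were.

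The thick ascending limb of the loop of Henle takes up sodium, potassium, and chloride through NKCC2, the product of Slc12a1, and returns potassium to the lumen through the channel ROMK, the product of Kcnj1. The same cells make uromodulin, the product of Umod, which is secreted into the urine. Further along, the distal convoluted tubule takes up sodium chloride through NCC, the product of Slc12a3, whose activity is set by a chain of kinases that includes WNK1. The connecting tubule and collecting duct take up sodium through ENaC, a channel built of the alpha, beta, and gamma subunits encoded by Scnn1a, Scnn1b, and Scnn1g. Sodium leaves all of these cells through the Na,K-ATPase of the basolateral membrane, of which Atp1b1 encodes a beta subunit.

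In unilateral ureter obstruction (UUO) 1 ureter of the mouse is ligated, and kidneys of the other side are called contralateral (CL). All mice were adult, kidneys were taken after 3 days, and both sexes were used. The study states that sex was uneven in some groups, and it lists mostly female controls in the Pdgfb arm. In the first arm mice received ABTAA, an antibody that binds angiopoietin-2 and activates the endothelial receptor TIE2 (ABT, 7 CL and 7 UUO libraries), or human IgG Fc as control (IgG, 8 and 8). In the second arm floxed Veptp was deleted by tamoxifen-inducible Cdh5-CreERT2, which is active in endothelium (VeKO, 6 and 8), and controls were Veptp wt/lox mice with the same Cre that were not induced (VeWT, 7 and 8), so that tamoxifen and deletion cannot be told apart. In the third arm floxed Pdgfb was deleted throughout the body by tamoxifen-inducible Actb-CreERT2 (PbKO, 4 and 4), and controls were wt/lox or lox/lox mice without Cre (PbWT, 4 and 4). Among the PbWT CL kidneys 2 came from sham-operated mice, which the labels do not mark. Per the study's methods the single animal was the experimental unit and several litters were used. The labels do not say which libraries share a litter, or which CL and UUO libraries come from the same mouse.

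Sequence upstream of the start is shown for 5 genes whose messages behaved differently, Slc12a1 and Slc12a3 (called lower with UUO in all 6 comparisons), Umod (in 3), Scnn1b (in 1), and Scnn1g (in none). Coordinates are on GRCm38, the mm10 build of the files, with promoters from RefSeq (GRCm38.p6) and gene starts also from GENCODE vM21, and only bases before both starts are printed. Slc12a1 lies on the plus strand (chr2:125152505-125230002), Slc12a3 on the plus strand (chr8:94329201-94366214), and Umod on the minus strand (chr7:119462711-119479282). Scnn1g (chr7:121734479-121768475) and Scnn1b (chr7:121865038-121918514) are neighbours on the plus strand. The printed stretches are chr2:125152350-125152504 for Slc12a1, chr8:94328958-94329200 for Slc12a3, chr7:119479283-119479512 for Umod, chr7:121864788-121865037 for Scnn1b, and chr7:121734229-121734478 for Scnn1g, each written 5′ to 3′ on the strand of its gene. Capitals mark TATAAA, the core of a TATA box, in Slc12a3 and GTTAAT, a core of the HNF1 site, in Umod.
Slc12a1: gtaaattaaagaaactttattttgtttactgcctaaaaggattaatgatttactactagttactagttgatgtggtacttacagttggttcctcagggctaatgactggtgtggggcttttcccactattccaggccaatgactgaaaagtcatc
Slc12a3: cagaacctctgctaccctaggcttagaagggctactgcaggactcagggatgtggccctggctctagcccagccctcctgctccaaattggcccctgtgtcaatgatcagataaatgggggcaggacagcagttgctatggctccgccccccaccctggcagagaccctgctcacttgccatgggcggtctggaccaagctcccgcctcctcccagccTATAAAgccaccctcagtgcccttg
Umod: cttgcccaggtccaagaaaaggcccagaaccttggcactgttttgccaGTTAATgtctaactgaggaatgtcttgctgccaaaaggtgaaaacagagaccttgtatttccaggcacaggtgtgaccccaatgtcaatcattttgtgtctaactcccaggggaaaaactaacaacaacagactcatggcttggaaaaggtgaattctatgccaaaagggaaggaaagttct
Scnn1b: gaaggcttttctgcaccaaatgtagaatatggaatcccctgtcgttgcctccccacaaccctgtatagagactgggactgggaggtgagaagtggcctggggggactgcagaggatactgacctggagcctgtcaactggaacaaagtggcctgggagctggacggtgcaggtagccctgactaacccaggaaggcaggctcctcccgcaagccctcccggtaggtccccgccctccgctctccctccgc
Scnn1g: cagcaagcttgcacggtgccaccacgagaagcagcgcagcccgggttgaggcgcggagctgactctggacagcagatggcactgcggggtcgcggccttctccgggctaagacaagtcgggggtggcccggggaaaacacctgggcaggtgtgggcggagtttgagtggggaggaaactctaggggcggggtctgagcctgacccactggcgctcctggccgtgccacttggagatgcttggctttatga
Of the 9 genes 8 have a promoter in the RefSeq table, and Scnn1a is named only. In the 250 bases before the RefSeq start the count of CG pairs was 0 for Umod, 2 for Kcnj1, 3 for Slc12a3, and 4 for Slc12a1, and it was 7 for Scnn1b, 16 for Scnn1g, 24 for Atp1b1, and 26 for Wnk1. Over all 32851 promoters the quartiles of this count were 2, 6, and 16. The same windows were searched on both strands for 4 short motifs, which do not overlap each other where found. TATAAA was found in Slc12a3 and in 12.4% of all promoters, GTTAAT in Umod and in 6.43%, TGTTCT, a half-site of steroid receptors, in Kcnj1 and in 16.1%, and AAGGTCA, a site of estrogen-related receptors, in none of the 8 and in 4.08%. These matches describe the letters of the windows.

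The other 4 genes lie at chr9:32372493-32399197 (Kcnj1, plus strand), chr6:125320659-125344943 (Scnn1a, plus), chr1:164437109-164458355 (Atp1b1, minus), and chr6:119923969-120038672 (Wnk1, minus). Counts cover whole genes, and whether they were made by strand is not stated. Slc12a1, Umod, Scnn1b, Atp1b1, and Wnk1 each overlap a gene on the opposite strand (Gm14002, Gm44588, Cog7, Nme7, and Gm16199), and reads of such partners may be shared. Gm44588, which lies opposite Umod, was also called lower in IgG UUO kidneys (log2 fold change -0.66, adjusted p = 0.00218), and Nme7, opposite Atp1b1, as well (-0.88, adjusted p = 0.00511, edgeR).

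Library totals ran from 172827 to 2341800 counts with a median of 757897. Levels are given as CPM, the count divided by the library's effective size and set to a common total, scaled within each arm by edgeR's TMM factors, so levels are compared between groups of an arm and not between arms or genes. The measure of likeness given later, which joins the group means of all arms, is the exception. Ptprb, which encodes VE-PTP, was at 34.1 ± 6.38 CPM in VeKO CL kidneys and 53.9 ± 21.4 in VeWT CL kidneys (SD, adjusted p = 1, edgeR), and at 33.3 ± 18.9 and 51.2 ± 27.9 CPM in UUO kidneys (adjusted p = 1). Pdgfb was at 37.1 ± 3.15 CPM in PbKO UUO kidneys and 52.9 ± 6.63 in PbWT UUO kidneys (adjusted p = 0.124), but at 19.0 ± 3.98 against 10.4 ± 6.72 CPM in CL kidneys (adjusted p = 1), and it rose less with UUO (difference of responses -1.26, adjusted p = 0.0461), so PbKO is used here for the libraries labelled so. The study itself reports lower Pdgfb in the UUO and the CL kidneys of its knockouts. VeKO CL replicate 2 held injury markers at 515 CPM in sum (Havcr1, Lcn2, Krt20, and Krt8), where the other groups' CL medians were 120 to 175. In the Veptp arm 4 numbers in the library names carry opposite genotypes in the CL and the UUO kidney, and the 8 libraries concerned were left out as an alternative. Names of 45 libraries are written without a separator (the character _) and names of 30 with one, with both forms in each group of the ABTAA and Veptp arms. Without TMM factors the median log2 fold change over all genes moved from 0.04 to 0.40 in PbWT UUO against CL and from -0.02 to -0.28 in PbKO against PbWT UUO kidneys. In the other 5 comparisons of UUO with CL it moved from between -0.01 and 0.01 to between 0.08 and 0.21. The share of higher genes among those called then went from between 46.5% and 62.1% to between 65.4% and 78.8% in the 6 comparisons of UUO with CL, from 64.7% to 21.9% in PbKO against PbWT UUO kidneys, and from 77.9% to 33.4% in the difference between their responses.

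UUO was compared with CL kidneys in each of the 6 treatments or genotypes, and a gene was called at an adjusted p under 0.05 in edgeR's quasi-likelihood test. In IgG-treated mice 8 of the 9 genes fell, all but Scnn1g, where 18.4% of all 9579 genes tested fell. In ABT-treated mice 6 fell, all but the ENaC subunits, where 12.5% of all genes did. Slc12a1, Slc12a3, Kcnj1, Wnk1, and Scnn1a, 5 of 9, were the genes that fell in VeWT (8.38% of all genes), in VeKO (3.47%), and in PbKO mice (2.40%). In PbWT mice 7 fell, all but Scnn1b and Scnn1g (19.4% of all genes). No member rose in any of the 6. Without the 8 libraries of the Veptp arm whose numbers carry opposite genotypes, an alternative chosen after the data were seen, 4 members fell in VeWT mice (2.71% of all genes) and 0 in VeKO mice (0.127%), where Slc12a1 was at -1.23 (SE 0.40, adjusted p = 0.153) and Slc12a3 at -1.13 (SE 0.31, adjusted p = 0.078, edgeR). Without VeKO CL replicate 2, 6 fell in VeKO mice (4.62% of all genes). In PbKO mice 2 or 3 members fell when PbKO CL replicate 2 (3), 3 (2), or 4 (2) or PbKO UUO replicate 2 (2), 3 (3), or 4 (2) was left out, with Slc12a1 among them each time. The median log2 fold change of the 9 genes was -1.02 in IgG, -0.72 in ABT, -0.95 in VeWT, -1.01 in VeKO, -1.12 in PbWT, and -0.59 in PbKO mice, where the median over all genes lay between -0.01 and 0.04.

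Single libraries were compared as well. No UUO library reached the lowest CL library for 5 members in IgG mice (Slc12a1, Slc12a3, Umod, Kcnj1, and Wnk1), which held for 5.26% of all genes. This was so for 3 members (Slc12a1, Slc12a3, and Kcnj1) in ABT mice (2.90%) and in VeWT mice (2.30%), for none in VeKO mice (0.512%), for the same 7 that were called in PbWT mice (17.3%), and for Slc12a1 and Scnn1a in PbKO mice (5.13%). A lower level in whole kidney can come from fewer cells of a segment or from less RNA in each, and these cannot be told apart here. Markers of fibroblasts and mural cells (Col1a1, Col3a1, Pdgfrb, and Dcn) summed to 78.1 to 163 CPM in IgG CL and 733 to 1130 in IgG UUO kidneys, and those of leukocytes (Ptprc, Cd68, Adgre1, and Csf1r) to 66.0 to 115 and 138 to 259. All 4 markers of each list rose in IgG and PbWT mice, and in the other treatments or genotypes 2 to 4 of the first and 1 to 3 of the second did. Their part in the falls was not tested.

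**Figure D1:**
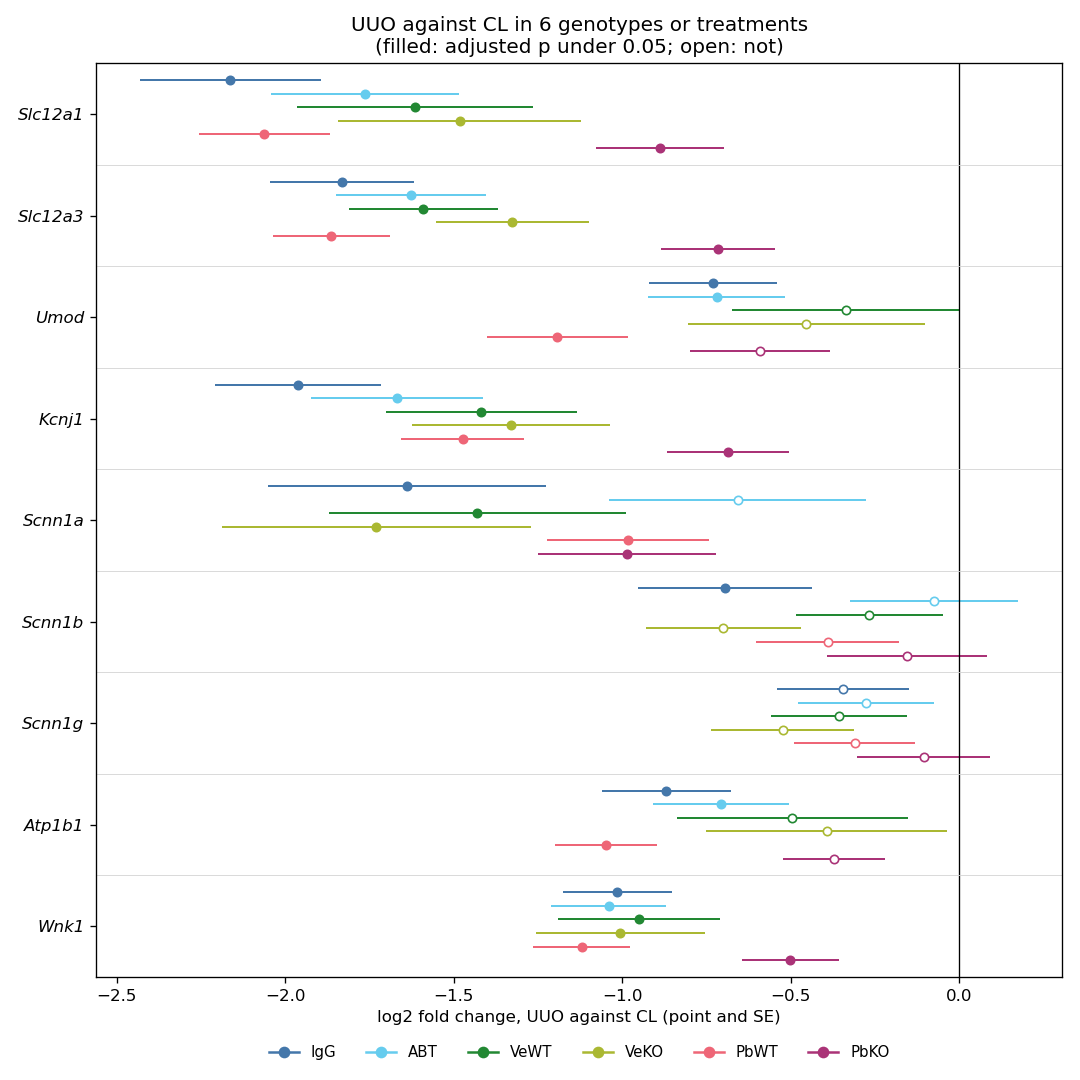
Log2 fold changes of the 9 genes, UUO against CL, with standard errors, for IgG, ABT, VeWT, VeKO, PbWT, and PbKO mice, from edgeR; filled points passed an adjusted p of 0.05 and open points did not. All points lie below 0, from -2.16 for Slc12a1 in IgG mice to -0.07 for Scnn1b in ABT mice, and Scnn1g has no filled point.

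Slc12a1, the NKCC2 gene, ranged from 875 to 1496 CPM (median 1105) in IgG CL kidneys and from 151 to 565 (median 225) in IgG UUO kidneys. ABT CL kidneys held 953 to 1955 CPM (median 1150) and ABT UUO kidneys 145 to 728 (median 370). Neither pair of ranges met, and the log2 fold changes were -2.16 (SE 0.27, adjusted p = 8.62e-08) and -1.76 (SE 0.28, adjusted p = 1.12e-05) on the log2 scale. In the Veptp arm VeWT levels were 723 to 1162 CPM (median 931) in CL and 162 to 552 (median 264) in UUO kidneys. VeKO levels were 572 to 1483 CPM (median 1068) in CL and 133 to 882 (median 320) in UUO kidneys. The VeWT ranges stayed apart while those of VeKO overlapped, with log2 fold changes of -1.62 (SE 0.35, adjusted p = 0.00125) and -1.48 (SE 0.36, adjusted p = 0.00825). PbWT CL kidneys held 826, 951, 1248, and 1030 CPM and PbWT UUO kidneys 163, 218, 340, and 246. PbKO CL kidneys held 795, 1128, 1202, and 1224 CPM and PbKO UUO kidneys 731, 478, 581, and 575. All UUO kidneys of both genotypes lay below all CL kidneys of their genotype, and Slc12a1 fell by 2.06 (SE 0.19, adjusted p = 8.71e-09) in PbWT and fell by 0.89 (SE 0.19, adjusted p = 0.00512) in PbKO mice.

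Kcnj1, the ROMK gene, stood at 267 to 646 CPM (median 465) in IgG CL and 84.0 to 185 (median 112) in IgG UUO kidneys. In ABT mice it stood at 355 to 1109 CPM (median 478) in CL and 82.3 to 273 (median 139) in UUO kidneys. Every UUO kidney of both treatments was below every CL kidney of its treatment, with log2 fold changes of -1.96 (SE 0.25, adjusted p = 1.12e-07) and -1.67 (SE 0.26, adjusted p = 6.66e-06). VeWT kidneys held 279 to 423 CPM (median 359) in CL and 79.3 to 206 (median 122) in UUO. VeKO kidneys held 263 to 585 (median 397) in CL and 71.4 to 400 (median 127) in UUO. Kcnj1 fell by 1.42 (SE 0.28, adjusted p = 0.000534) in VeWT, without overlap, and fell by 1.33 (SE 0.29, adjusted p = 0.00387) in VeKO mice, with overlap. The 4 PbWT CL kidneys were at 247, 420, 345, and 394 CPM and the 4 PbWT UUO kidneys at 99.7, 116, 146, and 145. The 4 PbKO CL kidneys were at 272, 433, 447, and 445 CPM and the 4 PbKO UUO kidneys at 244, 198, 237, and 307. Only the PbKO ranges met, where PbKO CL replicate 1 lay below 1 UUO kidney, and the log2 fold changes were -1.47 (SE 0.18, adjusted p = 5.04e-07) in PbWT and -0.69 (SE 0.18, adjusted p = 0.0238) in PbKO mice. The latter call was lost in 5 of 16 fits that left out 1 library, those without PbKO CL replicate 2, 3, or 4 or PbKO UUO replicate 2 or 3.

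Umod, the uromodulin gene, was at 3599 to 5803 CPM (median 4232) in IgG CL and 1714 to 3361 (median 2632) in IgG UUO kidneys. ABT kidneys held 2691 to 6658 CPM (median 4535) in CL and 1839 to 3542 (median 2924) in UUO. The log2 fold changes were -0.73 (SE 0.19, adjusted p = 0.00274) in IgG, where the ranges stayed apart, and -0.72 (SE 0.20, adjusted p = 0.00752) in ABT mice, where they overlapped. Both calls were lost among libraries whose names have no separator, at -0.57 (SE 0.25, adjusted p = 0.106) and -0.28 (SE 0.25, adjusted p = 0.529), while among those with a separator Umod was at -0.84 (adjusted p = 0.00247) and -1.20 (adjusted p = 0.000496). In VeWT mice Umod was at 1781 to 4467 CPM (median 2214) in CL and 932 to 3389 (median 2461) in UUO kidneys. In VeKO mice it was at 2368 to 4944 CPM (median 3075) in CL and 1047 to 4122 (median 2276) in UUO kidneys. These ranges overlapped widely, and the log2 fold changes of -0.34 (SE 0.34, adjusted p = 0.576) and -0.45 (SE 0.35, adjusted p = 0.54) did not pass. With the form of the library name as a covariate they were -0.43 (adjusted p = 0.0319) and -0.78 (adjusted p = 0.000764) and passed, as did -0.61 (adjusted p = 0.00407) and -0.62 (adjusted p = 0.00803) with the number in the name as a block. Only names with a separator hold a number, so the block also takes up the form and is not a separate check. Some of these numbers carry opposite genotypes in the CL and the UUO kidney. PbWT levels were 2568, 5452, 4126, and 4383 CPM in CL and 1865, 1637, 1752, and 1975 in UUO kidneys, for a log2 change of -1.19 (SE 0.21, adjusted p = 5.67e-05) without overlap. PbKO levels were 2769, 5029, 4742, and 4033 CPM in CL and 3570, 2359, 2762, and 2327 in UUO kidneys, an estimate of -0.59 (SE 0.21) that missed the threshold (adjusted p = 0.0929) and whose ranges overlapped. It passed with nearly the same size with no filter on low counts (-0.58, adjusted p = 0.00162) and with Xist as a covariate (-0.59, adjusted p = 0.015), and in 3 of 16 fits that left out 1 library.

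Markers of the thick ascending limb other than the members (Egf, Cldn10, Cldn16, Cldn19, Ptger3, and Casr) had lower median sums in UUO than in CL kidneys in each treatment or genotype. Umod was not called in the Veptp arm, and the part of these markers in the result was not tested. Their sum was 1900 to 2630 CPM in IgG CL and 272 to 1220 in IgG UUO kidneys, with 5 of 6 lower by the test. In ABT mice it was 1970 to 2610 CPM in CL and 301 to 1490 in UUO kidneys, with 4 of 6 lower. In VeWT mice it was 1470 to 2450 and 255 to 1150 CPM, with 4 of 6 lower, and in VeKO mice 1270 to 2520 and 318 to 1890, with 2 of 6 lower. In PbWT mice it was 1780 to 2390 CPM in CL and 320 to 511 in UUO kidneys, with 4 of 6 lower, and in PbKO mice 1790 to 2240 and 1100 to 1480, with 2 of 6 lower. None of these markers had a median of 0 in any group. Markers of injured tubule moved the other way, from 94.2 to 162 CPM in IgG CL to 1410 to 2360 in IgG UUO kidneys, and all 4 rose in IgG, PbWT, and PbKO mice, with Krt20 at a median of 0 in IgG and PbKO CL kidneys.

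Slc12a3, the NCC gene, had 468 to 808 CPM (median 546) in IgG CL and 113 to 240 (median 156) in IgG UUO kidneys. ABT kidneys had 436 to 879 CPM (median 581) in CL and 122 to 397 (median 163) in UUO. The ranges did not meet in either treatment, and Slc12a3 fell by 1.83 (SE 0.21, adjusted p = 3.02e-08) in IgG mice and fell by 1.63 (SE 0.22, adjusted p = 1.06e-06). VeWT kidneys had 376 to 833 CPM (median 628) in CL and 180 to 253 (median 203) in UUO. VeKO kidneys had 375 to 978 CPM (median 831) in CL and 171 to 595 (median 286) in UUO. The log2 fold changes were -1.59 (SE 0.22, adjusted p = 8e-06) without overlap in VeWT and -1.33 (SE 0.23, adjusted p = 0.000329) with overlap in VeKO mice. In PbWT mice the CL kidneys had 508, 655, 786, and 632 CPM and the UUO kidneys 184, 186, 179, and 158. In PbKO mice the CL kidneys had 490, 775, 787, and 717 CPM and the UUO kidneys 514, 388, 491, and 303. PbWT UUO kidneys lay close together and far below their CL kidneys, while PbKO CL replicate 1 was within the PbKO UUO range. The log2 fold changes were -1.86 (SE 0.17, adjusted p = 7.37e-09) in PbWT and -0.72 (SE 0.17, adjusted p = 0.0119) in PbKO mice, where the call was lost without PbKO UUO replicate 4.

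Wnk1, which encodes a kinase upstream of NCC, went from 290 to 448 CPM (median 350) in IgG CL to 144 to 201 (median 184) in IgG UUO kidneys. ABT kidneys went from 250 to 485 CPM (median 404) to 126 to 301 (median 175). The IgG ranges stayed apart and the ABT ranges overlapped, with nearly equal log2 fold changes of -1.02 (SE 0.16, adjusted p = 5.59e-06) and -1.04 (SE 0.17, adjusted p = 1.73e-05). VeWT levels were 258 to 514 CPM (median 312) in CL and 111 to 270 (median 167) in UUO kidneys, and VeKO levels 285 to 453 (median 417) and 94.8 to 403 (median 191). Both pairs overlapped, and Wnk1 fell by 0.95 (SE 0.24, adjusted p = 0.00498) and fell by 1.01 (SE 0.25, adjusted p = 0.00961). PbWT CL kidneys were at 408, 396, 454, and 387 CPM and PbWT UUO kidneys at 168, 171, 206, and 212, for a log2 change of -1.12 (SE 0.14, adjusted p = 7.55e-07) without overlap. PbKO CL kidneys were at 383.5, 320, 476, and 421 CPM and PbKO UUO kidneys at 354, 237, 308, and 248, for a log2 change of -0.50 (SE 0.14, adjusted p = 0.0374) with overlap. This call was lost without TMM factors (-0.43, adjusted p = 0.0655), in the exact test (-0.49, adjusted p = 0.0924), and in 4 of 16 fits that left out 1 library, those without PbKO CL replicate 3 or 4 or PbKO UUO replicate 2 or 4.

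Markers of the distal convoluted and connecting tubule (Pvalb, Calb1, Trpm6, Trpv5, and Slc8a1) summed to 722 to 1240 CPM in IgG CL and 146 to 495 in IgG UUO kidneys, with 3 of 5 lower and 1 higher by the test and Pvalb at a median of 0 in IgG UUO kidneys. In PbWT mice the sums were 945 to 1150 and 152 to 248 CPM and in PbKO mice 1010 to 1380 and 530 to 827 CPM, and their part in the changes of Slc12a3 and Wnk1 was not tested.

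Scnn1a, the alpha subunit of ENaC, was counted at low depth, with 1 to 255 reads a library. It ranged from 11.4 to 51.3 CPM (median 25.8) in IgG CL and 2.34 to 18.2 (median 6.31) in IgG UUO kidneys, and fell by 1.64 (SE 0.41, adjusted p = 0.00194) with overlap. In the exact test of edgeR Scnn1a was not tested in IgG mice, since it missed the filter on low counts over these 2 groups alone. ABT kidneys held 15.4 to 36.8 CPM (median 25.1) in CL and 3.74 to 47.5 (median 11.4) in UUO, and the estimate of -0.66 (SE 0.38, adjusted p = 0.225) did not pass, though it did with the form of the name as a covariate (-0.64, adjusted p = 0.0479) and without ABT UUO replicate 2. VeWT kidneys held 20.2 to 158 CPM (median 108) in CL and 9.21 to 61.6 (median 27.4) in UUO, for a log2 change of -1.43 (SE 0.44, adjusted p = 0.0207). VeKO kidneys held 22.6 to 235 CPM (median 156) in CL and 20.4 to 63.4 (median 39.2) in UUO, for a log2 change of -1.73 (SE 0.46, adjusted p = 0.0152). The wide CL ranges of the Veptp arm split by the form of the library name, as given later. Without a separator Scnn1a was at -0.65 (adjusted p = 0.29) in VeWT and -0.18 (adjusted p = 0.967) in VeKO mice, and with one it fell by 1.46 (adjusted p = 1.89e-05) and fell by 1.86 (adjusted p = 7.44e-07). Both calls were also lost, at estimates near those above, without the 8 libraries with opposite genotypes under 1 number (-1.36, adjusted p = 0.143, and -1.53, adjusted p = 0.245) and without TMM factors (-1.31, adjusted p = 0.0904, and -1.65, adjusted p = 0.0643). That in VeWT mice was lost as well with Xist as a covariate (-1.19, adjusted p = 0.0586) and without VeWT CL replicate 4 or 6. PbWT kidneys were at 21.1, 36.3, 31.0, and 27.2 CPM in CL and 15.1, 8.93, 18.6, and 13.7 in UUO, and PbKO kidneys at 26.9, 37.5, 38.6, and 33.9 in CL and 23.4, 13.5, 15.4, and 18.8 in UUO. Neither pair overlapped, and the log2 fold changes were alike, -0.98 (SE 0.24, adjusted p = 0.00206) and -0.99 (SE 0.26, adjusted p = 0.0247). The call in PbKO mice was lost in 6 of 16 fits that left out 1 library, those without PbKO CL or UUO replicate 2, 3, or 4. Its estimates over the 16 fits ran from -1.10 to -0.89.

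Scnn1b, the beta subunit, ranged from 17.1 to 59.3 CPM (median 36.0) in IgG CL and 14.0 to 36.5 (median 24.3) in IgG UUO kidneys, and fell by 0.70 (SE 0.26, adjusted p = 0.0347) with overlap. This call was lost without IgG CL replicate 1, 3, or 4 or IgG UUO replicate 1, 7, or 8, without TMM factors (-0.50, adjusted p = 0.12), and in the exact test of edgeR, which the study used (-0.65, adjusted p = 0.0562). It was lost at nearly the same size among libraries named without a separator (-0.69, adjusted p = 0.135) or with one (-0.67, adjusted p = 0.147). ABT kidneys held 28.3 to 55.0 CPM (median 46.1) in CL and 16.8 to 62.3 (median 36.4) in UUO, VeWT kidneys 22.4 to 61.3 (median 51.0) and 25.0 to 59.9 (median 43.0), and VeKO kidneys 27.1 to 84.6 (median 60.0) and 31.3 to 47.2 (median 37.9). PbWT kidneys were at 31.0, 64.1, 39.8, and 41.9 CPM in CL and 31.4, 29.8, 40.5, and 30.4 in UUO, and PbKO kidneys at 33.2, 60.0, 36.3, and 36.9 in CL and 23.4, 35.9, 41.9, and 35.9 in UUO. Each of these pairs overlapped. The log2 fold changes outside IgG mice were -0.07 (SE 0.25) in ABT, -0.27 (SE 0.22) in VeWT, -0.70 (SE 0.23) in VeKO, -0.39 (SE 0.21) in PbWT, and -0.15 (SE 0.24) in PbKO mice, with adjusted p from 0.0562 in VeKO to 0.869 in ABT. In VeKO mice Scnn1b passed in DESeq2 (-0.76, adjusted p = 0.0244), with the form of the name as a covariate (-0.78, adjusted p = 0.00718), with the number as a block (-0.74, adjusted p = 0.0182), which also takes up the form, and in 5 of 29 fits that left out 1 library. It was at 0.26 (adjusted p = 0.936) there without a separator and fell by 1.05 (adjusted p = 0.00163) with one. Scnn1g, the gamma subunit, lay between 48.4 and 92.4 CPM (median 67.5) in IgG CL and between 32.7 and 80.8 (median 52.0) in IgG UUO kidneys. ABT kidneys held 44.9 to 88.0 CPM (median 64.4) in CL and 35.5 to 82.2 (median 50.4) in UUO, VeWT kidneys 38.2 to 112 (median 84.0) and 42.6 to 79.8 (median 59.8), and VeKO kidneys 63.2 to 142 (median 75.5) and 42.4 to 91.3 (median 59.4). PbWT kidneys were at 56.5, 78.1, 82.6, and 92.1 CPM in CL and 60.9, 66.7, 64.7, and 55.8 in UUO, and PbKO kidneys at 49.9, 82.5, 63.5, and 72.8 in CL and 50.0, 46.0, 82.0, and 61.7 in UUO. Its estimates ran from -0.11 (SE 0.20) in PbKO to -0.52 (SE 0.21) in VeKO mice, with adjusted p from 0.138 to 0.822, and the CL and UUO ranges overlapped in each of the 6. Scnn1g passed in VeKO mice with the form of the name as a covariate (-0.57, adjusted p = 0.0364) and among libraries with a separator (-0.76, adjusted p = 0.0117), and in PbWT mice with Xist as a covariate (-0.40, adjusted p = 0.0472). Principal cell markers (Aqp2, Aqp3, Avpr2, and Fxyd4) summed to 141 to 508 CPM in IgG CL and 69.0 to 201 in IgG UUO kidneys, with 2 of 4 lower, and their part was not tested.

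Atp1b1, the beta subunit gene of the Na,K-ATPase, was at 1240 to 2648 CPM (median 1744) in IgG CL and 719 to 1547 (median 961) in IgG UUO kidneys. ABT kidneys held 1436 to 2421 CPM (median 1858) in CL and 658 to 1835 (median 1077) in UUO. Both pairs overlapped, and Atp1b1 fell by 0.87 (SE 0.19, adjusted p = 0.000433) and fell by 0.71 (SE 0.20, adjusted p = 0.00834). VeWT kidneys held 984 to 2259 CPM (median 1156) in CL and 564 to 1787 (median 988) in UUO, and VeKO kidneys 1156 to 2904 (median 1325) and 603 to 2331 (median 1158). Estimates there were -0.50 (SE 0.34, adjusted p = 0.368) and -0.39 (SE 0.36, adjusted p = 0.621), neither of which passed. They were -0.60 (adjusted p = 0.000324) and -0.73 (adjusted p = 0.000145) with the form of the name as a covariate and -0.67 (adjusted p = 0.00065) and -0.67 (adjusted p = 0.00191) with the number as a block, and passed in both fits. PbWT CL kidneys were at 1782, 2075, 2261, and 1912 CPM and PbWT UUO kidneys at 898, 907, 955, and 1129, for a log2 change of -1.05 (SE 0.15, adjusted p = 4.53e-06) without overlap. PbKO CL kidneys were at 1774, 2166, 2404, and 2124 CPM and PbKO UUO kidneys at 1958, 1659, 1704, and 1236, an estimate of -0.37 (SE 0.15, adjusted p = 0.154) with overlap. Atp1b1 is not restricted to the distal nephron, and proximal tubule markers (Slc34a1, Lrp2, Cubn, Slc5a2, Slc22a6, and Slc27a2) summed to 5350 to 8870 CPM in IgG CL and 2660 to 4270 in IgG UUO kidneys, with 6 of 6 lower.

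**Figure D2:**
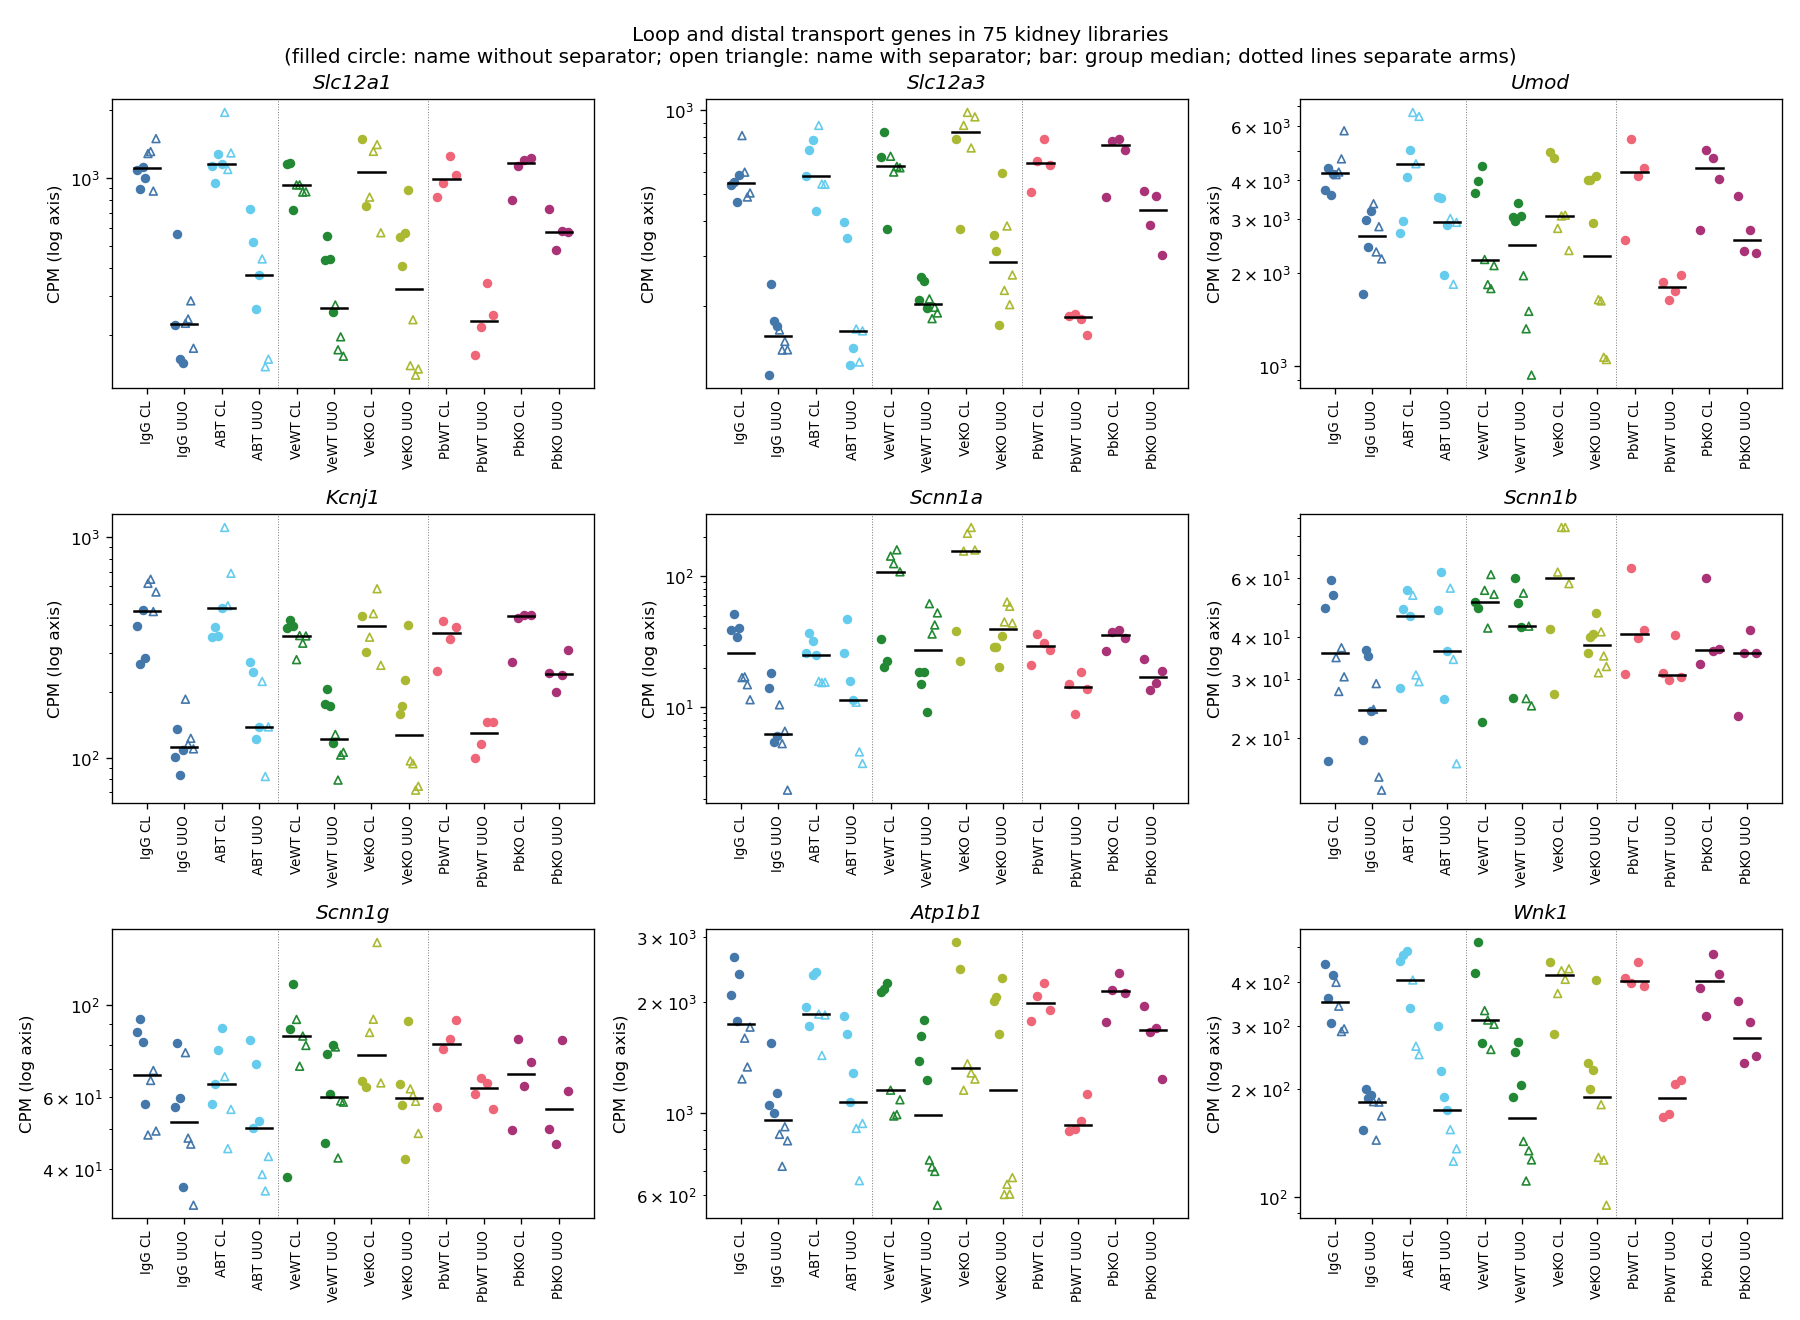
Levels of the 9 genes in the 75 libraries, in CPM on a log axis, by group and arm; filled circles are libraries named without a separator, open triangles those with one, and bars group medians. For Slc12a1, Slc12a3, and Kcnj1 the UUO medians lie below the CL medians in all 6 treatments or genotypes, and PbKO UUO libraries (478 to 731 CPM of Slc12a1) lie above PbWT UUO libraries (163 to 340 CPM).

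For 7 of the 9 genes, all but Scnn1b and Scnn1g, both CL groups of an arm had higher means than both UUO groups in each arm, and the treated or knockout UUO group had a higher mean than the control UUO group. The last step passed the test in the Pdgfb arm for 6 genes, and for 0 of 9 in the ABTAA and Veptp arms (adjusted p of 0.999 and 1, edgeR). Without VeKO UUO replicate 4 the estimates of VeKO against VeWT UUO kidneys turned to -0.015 for Slc12a1, -0.12 for Kcnj1, and -0.085 for Wnk1, and without ABT UUO replicate 1 that of ABT against IgG turned to -0.077 for Wnk1. Within each arm the neighbouring CL groups overlapped for each gene and did not differ by the test. In the Pdgfb arm mean Slc12a1 was 1087 ± 199 CPM in PbKO CL, 1014 ± 177 in PbWT CL, 591 ± 105 in PbKO UUO, and 242 ± 74.2 in PbWT UUO kidneys (SD, 4 libraries each). Mean Scnn1b was 44.2 ± 14.1 CPM in PbWT CL, 41.6 ± 12.4 in PbKO CL, 34.3 ± 7.79 in PbKO UUO, and 33.0 ± 5.02 in PbWT UUO kidneys, and no neighbours in this order differed beyond their spread.

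Pdgfb encodes a growth factor for mesenchymal cells, and the third arm compared obstructed kidneys of libraries labelled as its knockout with those of controls. In UUO kidneys 6 of the 9 genes were higher in the libraries labelled PbKO than in PbWT, where 12.0% of all 10923 genes were higher by the test. These were Slc12a1 at 242% of the PbWT level, Slc12a3 at 237%, Kcnj1 at 195%, Atp1b1 at 168%, Umod at 152%, and Wnk1 at 150%. For the same 6 every PbKO UUO library lay above every PbWT UUO library, which held for 12.7% of all genes in that direction. Differences were 1.28 (SE 0.19, adjusted p = 3.63e-05) for Slc12a1 and 1.25 (SE 0.17, adjusted p = 1.52e-05) for Slc12a3 on the log2 scale. They were 0.97 (SE 0.18, adjusted p = 0.000497) for Kcnj1, 0.75 (SE 0.15, adjusted p = 0.000866) for Atp1b1, 0.61 (SE 0.21, adjusted p = 0.0422) for Umod, and 0.58 (SE 0.14, adjusted p = 0.00547) for Wnk1. The ENaC subunits overlapped, with 0.23 (SE 0.26, adjusted p = 0.605) for Scnn1a, 0.11 (SE 0.22, adjusted p = 0.778) for Scnn1b, and -0.01 (SE 0.18, adjusted p = 0.971) for Scnn1g. Without TMM factors, where the median of all genes was -0.28 and 6.11% of all genes were higher, 4 remained called (Slc12a1 at 0.99, Slc12a3 at 0.96, Kcnj1 at 0.70, and Atp1b1 at 0.47), while Umod at 0.32 (adjusted p = 0.158) and Wnk1 at 0.30 (adjusted p = 0.107) did not pass, and Scnn1a and Scnn1b turned to -0.04 and -0.15. The call of Umod was also lost without PbWT CL replicate 4, any 1 of the 4 PbWT UUO libraries, or PbKO UUO replicate 1 or 3.

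Marker lists of several cell types also differed between these UUO kidneys, and their part in the differences was not tested. Thick ascending limb markers summed to 1100 to 1480 CPM in PbKO and 320 to 511 in PbWT UUO kidneys (3 of 6 higher), and distal convoluted and connecting tubule markers to 530 to 827 and 152 to 248 CPM (3 of 5 higher, 1 lower). Proximal tubule markers summed to 3400 to 6400 and 1910 to 2680 CPM (6 of 6 higher), intercalated cell markers (Atp6v1g3, Atp6v0d2, Slc4a1, Slc26a4, and Foxi1) to 266 to 313 and 125 to 204 (3 of 5 higher), and principal cell markers to 192 to 261 and 128 to 200 (1 of 4 higher). Fibroblast and mural cell markers summed to 226 to 614 and 665 to 933 CPM (4 of 4 lower), leukocyte markers to 86.7 to 120 and 151 to 220 (3 of 4 lower), endothelial markers (Pecam1, Cdh5, Emcn, and Kdr) to 76.0 to 131 and 124 to 167 (2 of 4 lower), and injured tubule markers to 634 to 1040 and 1220 to 1660 (1 of 4 lower). Umod and Atp1b1 share their loci with opposite-strand genes that were higher too, Gm44588 by 0.56 (adjusted p = 0.0317) and Nme7 by 0.70 (adjusted p = 0.00167, edgeR).

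CL kidneys of the 2 genotypes were compared in the same way. None of the 9 genes was called, nor was any of the 10923 tested (0%), and none of the 9 had an unadjusted p under 0.05, and DESeq2 and edgeR's exact test called none of the 9 either. The lowest p belonged to Scnn1g at -0.22 (SE 0.19, unadjusted p = 0.271, edgeR), which was 85.9% of the PbWT level, and the estimates ran from -0.22 to 0.23. The response to UUO differed between genotypes for 3 of the 9 genes, where 6.66% of all genes had a response higher in PbKO. The difference of the responses was 1.18 (SE 0.27, adjusted p = 0.00584) for Slc12a1, 1.15 (SE 0.24, adjusted p = 0.00312) for Slc12a3, and 0.67 (SE 0.21, adjusted p = 0.0475) for Atp1b1. Kcnj1 at 0.79 (SE 0.26, adjusted p = 0.0556) and Wnk1 at 0.62 (SE 0.20, adjusted p = 0.0565) lay just outside the threshold, and both passed in DESeq2 (adjusted p = 0.0422 and 0.0316) and with Xist as a covariate (adjusted p = 0.00372 and 0.0343), as Umod did in the latter (0.71, adjusted p = 0.0346). Scnn1a had a difference of -0.004 (SE 0.44, adjusted p = 0.997), which leaves room for differences of either sign. Atp1b1 lost its call without TMM factors (0.38, adjusted p = 0.173) and in 12 of the 16 fits that left out 1 library of the arm, while Slc12a1 and Slc12a3 were called in all 16, and 2 to 4 members were called in each.

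ABT- and IgG-treated mice were compared for an effect of the antibody. None of the 9 genes passed the edgeR test in UUO kidneys, nor any of the 9579 tested (0%), and DESeq2 and the exact test called none of the 9. At an unadjusted p under 0.05 there were 3 of the 9 and 344 of all 9579 genes. The 3 members were Scnn1b at 0.70 (SE 0.27, unadjusted p = 0.0122), Kcnj1 at 0.54 (SE 0.25, unadjusted p = 0.0413), and Slc12a1 at 0.56 (SE 0.27, unadjusted p = 0.0466), each with an adjusted p of 0.999 in edgeR. Of the 9 estimates 8 were above 0, and all ranges of ABT and IgG UUO kidneys overlapped. In CL kidneys 0 of the 9 and 0 of all genes (0%) were called and 0 of the 9 had an unadjusted p under 0.05, with the lowest for Kcnj1 at 0.24 (SE 0.24, unadjusted p = 0.316), and DESeq2 and the exact test called 0 of the 9. The responses to UUO did not differ by the test for any of the 9 or of all genes (0%, edgeR), 0 of the 9 had an unadjusted p under 0.05, and DESeq2 called 0. The lowest p there was that of Scnn1b at 0.62 (SE 0.36, unadjusted p = 0.093), and the estimate for Scnn1a was 0.98 (SE 0.57).

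VeKO and VeWT mice were compared for an effect of the endothelial deletion, together with tamoxifen. In UUO kidneys edgeR, DESeq2, and the exact test called 0 of the 9 genes, and edgeR called 0% of all 11916. At an unadjusted p under 0.05 in edgeR there were 1 of the 9 and 424 of all genes. The member was Slc12a3 at 0.57 (SE 0.21, unadjusted p = 0.0115, adjusted p = 1), with 171 to 595 CPM in VeKO and 180 to 253 in VeWT UUO kidneys. Of the 9 estimates 7 were above 0. In CL kidneys the 3 tools called 0 of the 9, edgeR called 0% of all genes, and 0 of the 9 had an unadjusted p under 0.05, the lowest being that of Scnn1b at 0.33 (SE 0.23, unadjusted p = 0.168). For the difference of the responses edgeR and DESeq2 called 0 of the 9, edgeR 0% of all genes, with 0 at an unadjusted p under 0.05 and the lowest for Scnn1b at -0.43 (SE 0.32, unadjusted p = 0.182). The SE of these differences was 0.29 to 0.64, so changes of that order were not detectable.

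**Figure D3:**
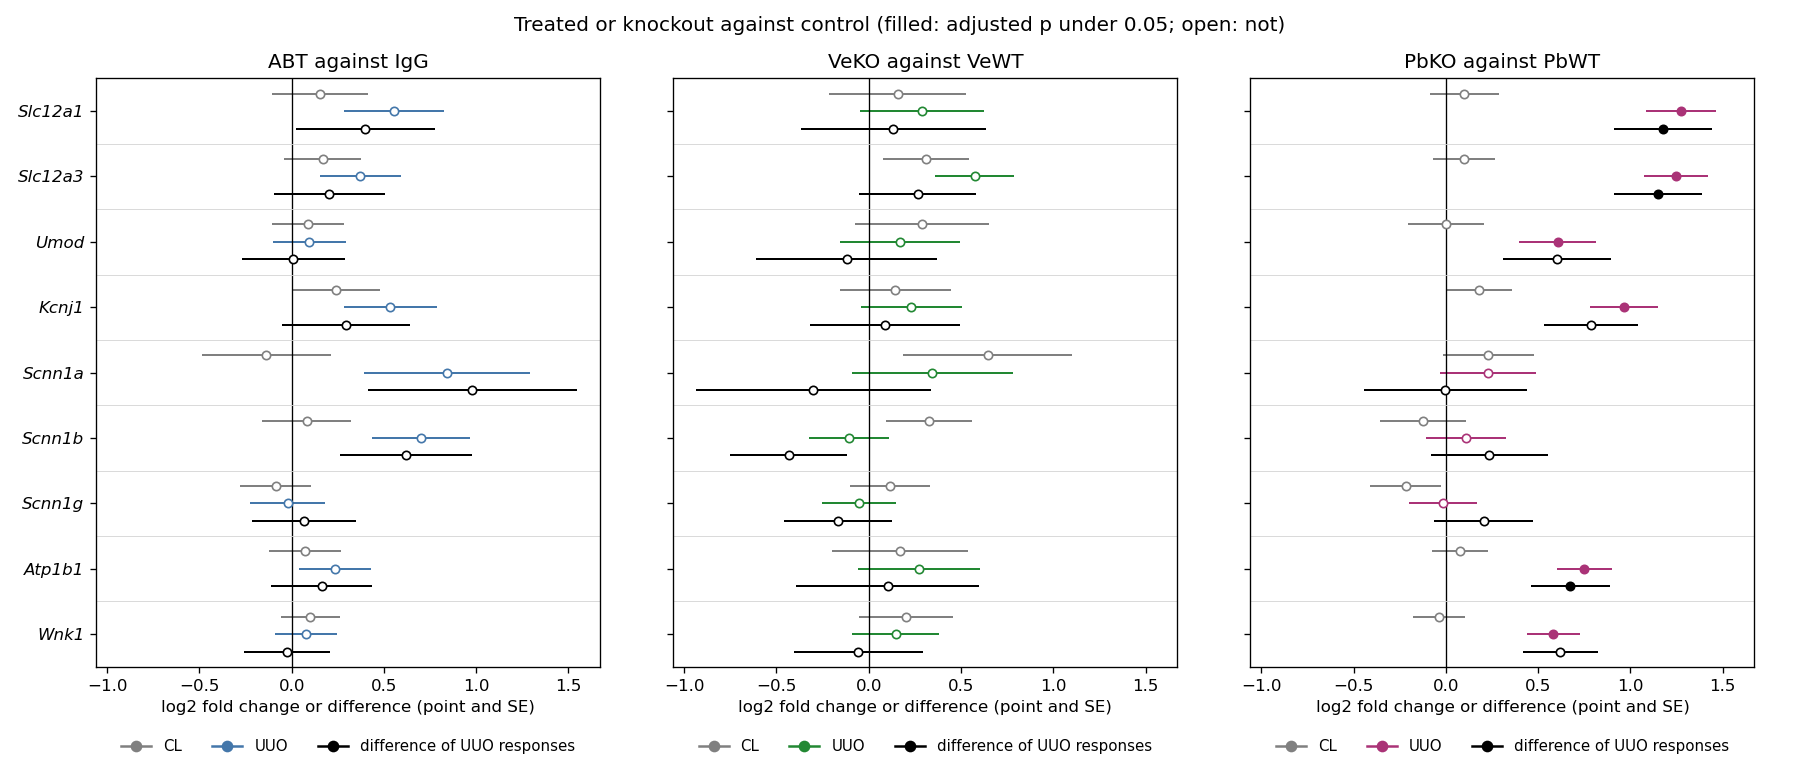
Log2 fold changes of the 9 genes with standard errors for ABT against IgG, VeKO against VeWT, and PbKO against PbWT, in CL kidneys (grey), UUO kidneys (coloured), and as the difference between UUO responses (black); filled points passed an adjusted p of 0.05. Filled points occur in the Pdgfb arm alone, 6 in UUO kidneys and 3 for the difference of the responses, and the ENaC subunits have none.

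Genes that work with the 9 were counted from a list of 20, made of basolateral channels and pumps, regulators of the WNK kinases, and aldosterone-responsive genes, of which 18 or 19 were tested in each arm. In IgG mice 13 of 18 fell (18.4% of all genes), in ABT mice 12 of 18 (12.5%), in VeWT mice 10 of 19 (8.38%), in VeKO mice 8 of 19 (3.47%), in PbWT mice 14 of 19 (19.4%), and in PbKO mice 2 of 19, Kcnj10 and Klhl3 (2.40%), and none rose. Prss8, a protease that activates ENaC, was at 175 to 262 CPM (median 217) in IgG CL and 83.6 to 107 (median 103) in IgG UUO kidneys, and fell by 1.09 (SE 0.12, adjusted p = 8.08e-09). In ABT mice it was at 145 to 205 CPM (median 174) in CL and 102 to 193 (median 127) in UUO kidneys, and fell by 0.38 (SE 0.12, adjusted p = 0.0187). The difference of the Prss8 responses, 0.71 (SE 0.17), had an unadjusted p of 0.000189 and an adjusted p of 1 in edgeR.

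Potassium recycles across the basolateral membrane of distal cells through channels that include Kcnj10. Kcnj10 fell in all 6, at -1.51 (SE 0.22) in IgG, -1.16 (SE 0.22) in ABT, -1.37 (SE 0.24) in VeWT, -1.62 (SE 0.25) in VeKO, -1.58 (SE 0.26) in PbWT, and -1.14 (SE 0.27) in PbKO mice. In UUO kidneys 9 of 19 were higher in PbKO than in PbWT (12.0% of all genes), among them Bsnd, which encodes barttin, by 1.17 (adjusted p = 0.000283), Wnk4, a kinase of the same family as WNK1, by 1.01 (adjusted p = 0.00214), Kcnj10 by 0.81 (adjusted p = 0.0439), and Prss8 by 0.62 (adjusted p = 0.00789). The difference of the responses passed for 4 of 19 (6.66% of all genes), Wnk4 at 1.09, Fxyd2, a subunit of the Na,K-ATPase, at 0.98, Bsnd at 0.93, and Prss8 at 0.74. Bsnd, Wnk4, Fxyd2, and Klhl3 are named here after their values were seen. Outside the Pdgfb arm no gene of the 20 differed between treated and control mice by the test.

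**Figure D4:**
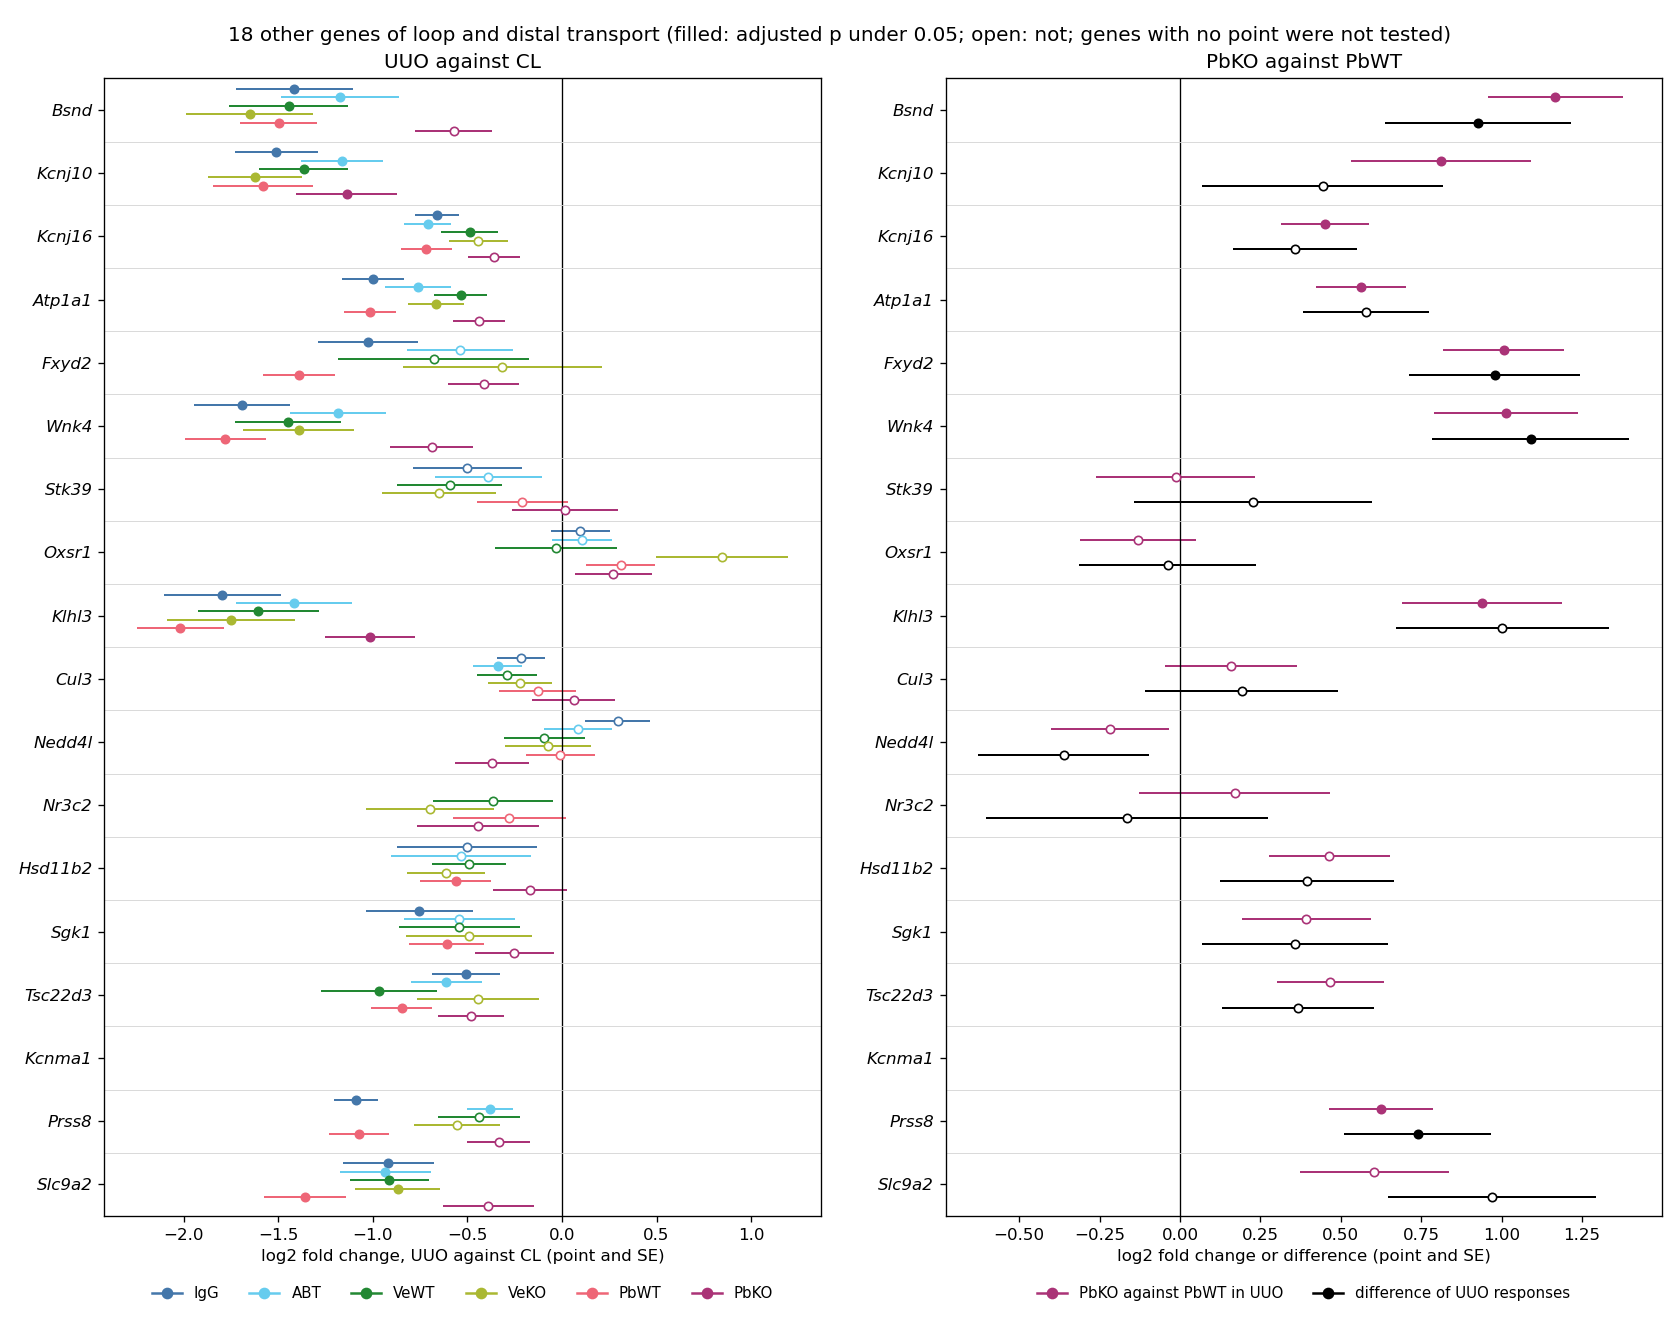
Log2 fold changes with standard errors of 18 of the 20 other genes of loop and distal transport, left for UUO against CL in the 6 treatments or genotypes and right for PbKO against PbWT in UUO kidneys and for the difference of their responses; filled points passed an adjusted p of 0.05; Kcnma1 (all arms) and Nr3c2 (ABTAA arm) have no point where they were not tested, and the other 2 genes of the list, both tested and part of the counts in the text, are not drawn. Among the genes drawn Klhl3 and Wnk4 lie furthest to the left in IgG mice, PbKO has 2 filled points, and on the right 8 genes are filled for UUO kidneys and 4 for the difference.

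The response was also fitted within each form of the library name, whose meaning the labels do not give. In ABT mice Kcnj1 fell by 1.01 (SE 0.22) among libraries without a separator and fell by 2.38 (SE 0.30) among those with one. In VeKO mice Slc12a1 was at -0.86 (SE 0.31, adjusted p = 0.655) without and fell by 2.67 (SE 0.26, adjusted p = 2.94e-07) with a separator. VeKO mice had 0 of 9 members called without a separator, where 2 CL libraries remained and 0% of all genes fell by the test, and 9 of 9 with one, where 11.2% fell. Among libraries without a separator the calls of Umod and Scnn1b in IgG, Umod and Atp1b1 in ABT, and Wnk1 and Scnn1a in VeWT mice were lost as well, and among those with one the call of Scnn1b in IgG mice was lost. Without a separator Atp1b1 was at -0.51 (adjusted p = 0.119) in ABT and Wnk1 at -0.74 (adjusted p = 0.0519, edgeR) in VeWT mice. The difference of the response between forms was -1.32 (SE 0.30, adjusted p = 0.0373) for Slc12a1 in the Veptp arm, the 1 member called where 0.369% of all genes were. In the ABTAA arm no gene was called (0%, edgeR), and the lowest p of a member was that of Kcnj1 at -0.85 (SE 0.28, unadjusted p = 0.00422, adjusted p = 0.27). This test was chosen after the data were seen, and the part of the form in each result was not tested further.

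Levels within a group also split by form. Scnn1a in VeWT CL kidneys was at 20.2 to 33.4 CPM without and 108 to 158 with a separator, and in VeKO CL kidneys at 22.6 to 38.4 and 155 to 235. The order was the opposite in the ABTAA arm, where IgG CL kidneys held 34.6 to 51.3 CPM without and 11.4 to 17.1 with a separator. Atp1b1 in VeWT CL kidneys was at 2130 to 2259 CPM without and 984 to 1156 with a separator, and Umod at 3643 to 4467 and 1781 to 2214. With the form as a covariate, members called in UUO against CL were 8 in IgG (21.6% of all genes fell), 7 in ABT (16.9%), 7 in VeWT (17.3%), and 9 in VeKO mice (10.8%). All libraries of the Pdgfb arm have names without a separator.

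**Figure D5:**
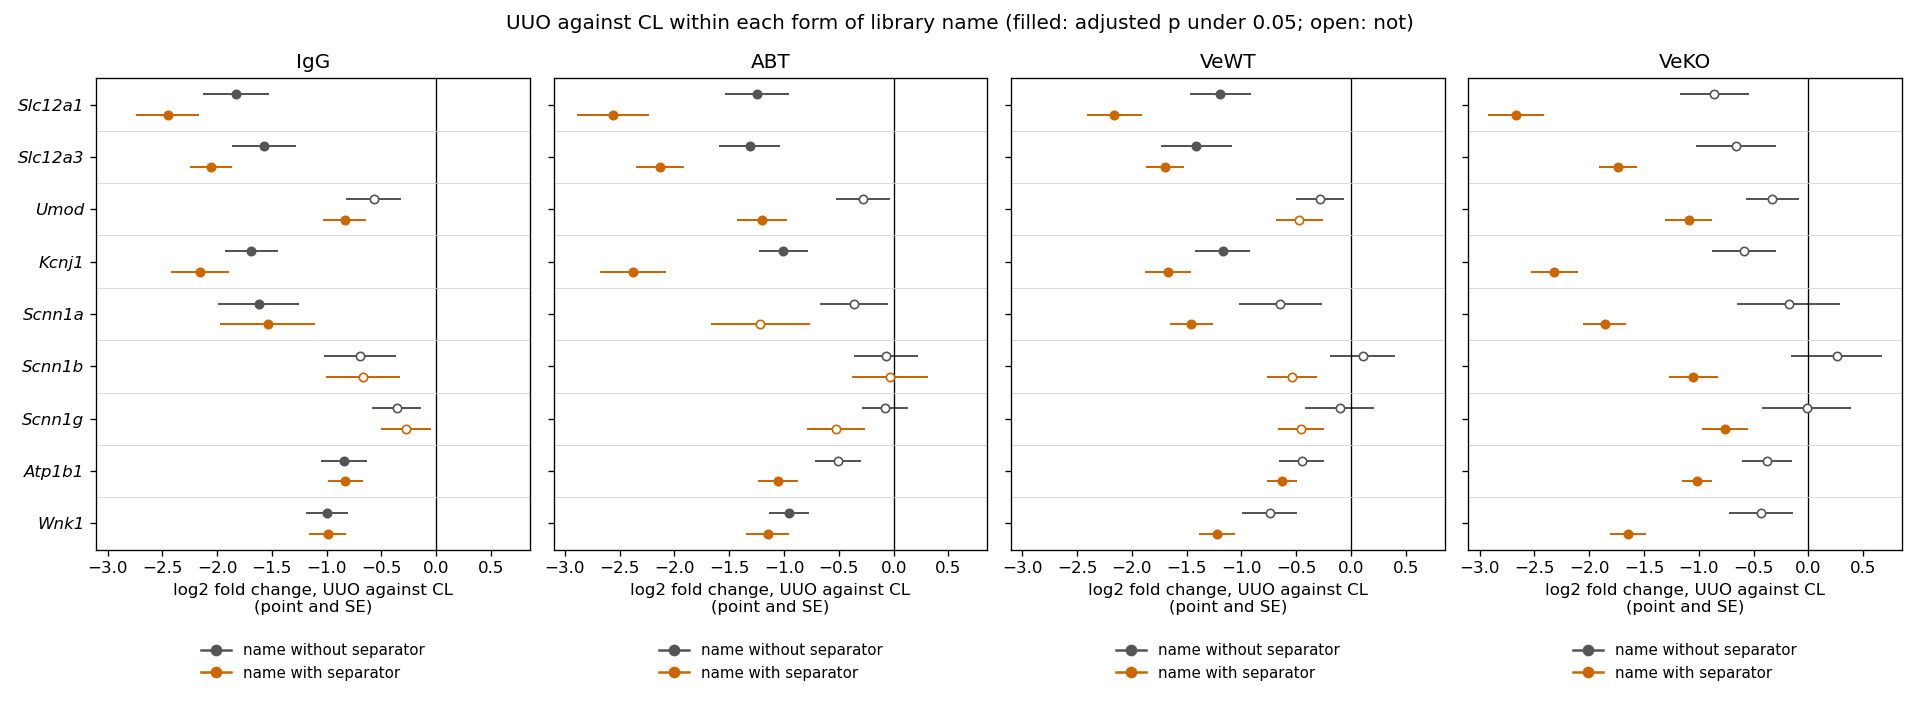
Log2 fold changes of the 9 genes, UUO against CL, with standard errors, fitted within libraries named without (grey) and with (orange) a separator, in IgG, ABT, VeWT, and VeKO mice; filled points passed an adjusted p of 0.05. In VeKO mice no grey point and all 9 orange points are filled, and Slc12a1 is at -0.86 without and -2.67 with a separator.

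Likeness of pattern was measured as the root mean square difference of centred mean log2(CPM + 1) over the 12 groups, among 9545 genes tested in all 3 arms. Nearest to Slc12a1 were Abca13 (0.119), Tspan1 (0.194), and Egfl6 (0.201), and nearest to Slc12a3 were Hlf (0.133) and Esrrb (0.179). Nearest to Umod were its opposite-strand neighbour Gm44588 (0.0638), 1700101I11Rik (0.101), and Mgam (0.105). For Scnn1b these were Spsb3 (0.0895), Arhgap32 (0.113), and Eme2 (0.114), and for Wnk1 Ckmt1 (0.0715), Prps2 (0.104), and Tln2 (0.108). Among the members Slc12a1 lay 0.194 from Kcnj1 and 0.249 from Slc12a3, Scnn1b lay 0.167 from Scnn1g, and Atp1b1 lay 0.179 from Wnk1 and 0.18 from Umod. These values describe 12 group means whose libraries are shared by all genes. Levels were scaled within each arm, so differences in level between arms enter these values too.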

How the data were processed

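Whole kidneys of mice were profiled by RNA sequencing with Smart-seq3-type libraries. Per the study's methods and the submitters' processing notes, the authors aligned reads to mm10 with STAR 2.7.3a, counted them per gene with featureCounts (Subread 1.4.6-p5 is named), and collapsed molecular identifiers with UMI-tools 1.1.4, and the deposited values are these raw counts, with 4 wells merged to a library. Neither annotation release nor strand setting is stated in the sources used here. Each of the 75 columns was assigned to its sample by name, groups came from the labels, and no 2 libraries were identical. Totals of 172827 to 2341800 counts limit the precision for low genes such as Scnn1a.

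In R 4.3.3 each of the 3 arms was fitted over its 4 groups with edgeR 4.0.16 (filterByExpr by group, TMM factors, quasi-likelihood test), which kept 9579 (ABTAA), 11916 (Veptp), and 10923 (Pdgfb) genes. P-values were adjusted by Benjamini-Hochberg over all genes tested in an arm, the threshold was 0.05, tests were two-sided, and 15 comparisons were made. SE is the log2 fold change divided by the root of its F statistic. CPM used library totals times TMM factors. Alternatives were the exact test of edgeR (used by the study), and also DESeq2 1.42.0, no TMM factors, no filter on low counts, Xist as a covariate, the form of the library name, the number in the library name as a block, and leaving out each library. The code was tested on simulated counts. Figures were drawn with matplotlib 3.10.9 in Python 3.11.15.

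The 9 genes and all gene lists were chosen with earlier results of these data known. All 9 are named in each comparison of UUO with CL, and elsewhere those called or, if none, that with the lowest p. Of the 20 other transport genes the rule named the 4 of lowest adjusted p in IgG mice, and likeness was computed for 5 members with their 3 nearest genes, and of both only some are reported here. Libraries of the ABTAA arm with the same number in CL and UUO kidneys, all of ABT mice, deviated together from their group means (r from 0.16 to 0.387 in 3 pairs). These numbers were taken to pair libraries only in the alternative with the number as a block. The main fits used group means without pairing, so their p-values leave this pairing out. Gene positions are from GENCODE vM21 and promoters from RefSeq.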

Additional observations from a re-analysis of the deposited data

Results flagged for a closer look

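The response to UUO differed between PbKO and PbWT mice, by the test of the difference itself, for Slc12a1 by 1.175, for Slc12a3 by 1.148, and for Atp1b1 by 0.6749 on the log2 scale, each with a smaller fall in PbKO mice.

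In 8 of 108 sets of 1 gene in 1 group, a single library stood apart from the rest by Dixon's ratio, where chance gives about 1 in 20. Slc12a1 was at 1955 CPM in ABT CL replicate 5, where the next library had 1292. Slc12a3 was at 808.4 CPM in IgG CL replicate 5 (next 598.5), at 375.5 in VeWT CL replicate 3 (next 599.1), and at 374.8 in VeKO CL replicate 2 (next 730.3), the library with high injury markers. Scnn1b was at 22.42 CPM in VeWT CL replicate 3 (next 42.51), the same library as for Slc12a3. Scnn1g was at 38.21 CPM in VeWT CL replicate 1 (next 71.04). In the Pdgfb arm Kcnj1 was at 272.3 CPM in PbKO CL replicate 1 (next 432.6), and Scnn1b at 40.46 in PbWT UUO replicate 3 (next 31.36).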

How the results depend on the processing

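The number of members called stayed within 1.5 times that reported in IgG, ABT, and PbWT mice and in PbKO against PbWT UUO kidneys under each alternative run, and the 7 comparisons with 0 called members kept 0. In VeWT mice 3 fell, in place of 5, with libraries named without a separator only (6.69% of all genes, in place of 8.38%). In VeKO mice 5 members fell as reported (3.47% of all genes). With the form of the name as a covariate 9 fell (10.8%), and with the number as a replicate block 8 (10.3%). With libraries named without a separator only 0 fell (0%), and with those with one only 9 (11.2%). Without the 8 libraries with opposite genotypes under 1 number, which was chosen after the data were seen, 0 fell (0.127%). For the difference between PbKO and PbWT responses 3 were called as reported, where 6.66% of all genes had a response higher in PbKO. There were 5 in DESeq2 (10.5% of 7111 genes) and 6 with Xist as a covariate (8.32% of all genes). Leaving out 1 library at a time gave 7 to 8 calls in IgG, 6 to 7 in ABT, 4 to 5 in VeWT, 5 to 6 in VeKO, 7 in PbWT, and 2 to 6 in PbKO mice, 5 to 6 for PbKO against PbWT UUO kidneys, and 2 to 4 for the difference of their responses, and where a lone form leaves few libraries the spread is pooled over groups. The exact test gave 6 calls in IgG mice (19.4% of all genes fell), where Scnn1b was not called and Scnn1a missed the filter on low counts. It gave 4 in PbKO mice (2.60%), without Wnk1. The cause of these shifts was not tested.

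With the replicate block IgG mice kept 8 calls (20.0% of all genes fell), ABT mice 6 (14.1%), and VeWT mice had 7 (15.5%, in place of 8.38%). In the Veptp arm libraries with the same number correlated with r from 0.0582 to 0.426 (mean 0.234) over 8 pairs, 7 of them above 0.1, and those with different numbers with a mean of -0.0333. Of the 16 libraries 10 correlated best with their own number. Since 1 pair was under 0.1 and 4 of the numbers carry opposite genotypes in the 2 kidneys, the numbers were not taken to pair the libraries, although CL and UUO kidneys of a mouse may be among them.

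Over all 9 genes, 15 comparisons, and alternatives, direction turned in 161 of 4426 values, 89 of them differences of responses and 89 from leaving out 1 library, and none of the 161 was called as reported or under the alternative. For UUO against CL, PbKO against PbWT UUO kidneys, the difference of these genotypes' responses, and the gene of lowest p in the other comparisons, the turned values were as follows. Without TMM factors Scnn1a was at -0.0356 and Scnn1b at -0.153 in PbKO against PbWT UUO kidneys, Scnn1b at 0.0427 in ABT UUO against CL, Scnn1g at 0.0582 in PbWT UUO against CL, and the difference between Pdgfb genotypes at -0.0539 for Scnn1b and -0.0836 for Scnn1g. With Xist as a covariate that difference was 0.0626 for Scnn1a, and Scnn1g was at 0.0913 in PbKO against PbWT UUO kidneys. With libraries named without a separator only Scnn1b was at 0.11 in VeWT and 0.26 in VeKO UUO against CL, at -0.30 in VeKO against VeWT CL, and at 0.15 for the difference of these responses. Leaving out 1 library gave -0.0206 to 0.328 for Kcnj1 in ABT against IgG CL, -0.17 to 0.22 for the Scnn1a difference between Pdgfb genotypes, -0.204 to 0.0408 for Scnn1b in ABT and -0.268 to 0.0215 in PbKO UUO against CL, and for Scnn1g -0.322 to 0.0125 in PbKO UUO against CL and -0.22 to 0.11 in PbKO against PbWT UUO kidneys.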
